A study of Mus musculus with 6 samples.

Results

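Myostatin and activin signalling is described here by 10 genes, found in the deposited table by their symbols, of 27131 genes in all. They are the ligand genes Mstn, Gdf11 and Inhbb, the inhibitor genes Fst and Fstl3, the receptor genes Acvr2a, Acvr2b, Acvr1b and Tgfbr1, and the signal transducer gene Smad3. Each symbol matched 1 gene. The tissue was the levator ani and bulbocavernosus (LA/BC) muscle, a perineal muscle group that depends on androgens, taken from mice of 14 weeks on standard chow. The groups were 3 wild-type mice (WT) and 3 mice labelled 113Q, which carry a knock-in allele that models SBMA. As background, SBMA is spinal and bulbar muscular atrophy, caused by a lengthened glutamine tract in the androgen receptor. The knock-in allele is present in every cell of the animal, so these libraries do not tell effects arising in muscle from effects arising in nerve or in other tissues. The strain, the sex and the litters are not given in the labels, and the labels name separate mice.

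As background, myostatin is a secreted growth factor made by muscle fibres that limits muscle mass, and activins act through the same receptors. A ligand dimer binds a type II receptor, which activates a type I receptor kinase, which in turn phosphorylates Smad2 and Smad3, and these enter the nucleus with Smad4. Follistatin and follistatin-like 3 bind the ligands outside the cell and keep them from the receptors.

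Promoters of the 3 secreted factors that changed between the groups are shown, each with 250 bases before and 50 bases after the transcript start, 5′ to 3′ on the gene's own strand. They come from RefSeq on the build GRCm38.p6. Capitals mark E boxes (CANNTG), the letters that bHLH factors such as MyoD are known to bind. Mstn lies at chr1:53061390-53061689 on the plus strand, Gdf11 at chr10:128891669-128891968 on the minus strand, and Fstl3 at chr10:79777024-79777323 on the plus strand.
Mstn: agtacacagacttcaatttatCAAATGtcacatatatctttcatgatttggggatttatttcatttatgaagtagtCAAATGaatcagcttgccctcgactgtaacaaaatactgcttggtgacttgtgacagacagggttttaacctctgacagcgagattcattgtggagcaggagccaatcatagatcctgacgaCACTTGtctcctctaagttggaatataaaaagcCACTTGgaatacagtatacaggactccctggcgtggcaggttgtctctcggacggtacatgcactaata
Gdf11: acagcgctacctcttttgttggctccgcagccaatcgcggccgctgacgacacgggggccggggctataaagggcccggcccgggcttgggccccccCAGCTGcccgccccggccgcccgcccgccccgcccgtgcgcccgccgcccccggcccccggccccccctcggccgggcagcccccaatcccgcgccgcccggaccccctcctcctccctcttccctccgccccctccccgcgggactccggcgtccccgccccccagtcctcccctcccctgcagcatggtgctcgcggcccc
Fstl3: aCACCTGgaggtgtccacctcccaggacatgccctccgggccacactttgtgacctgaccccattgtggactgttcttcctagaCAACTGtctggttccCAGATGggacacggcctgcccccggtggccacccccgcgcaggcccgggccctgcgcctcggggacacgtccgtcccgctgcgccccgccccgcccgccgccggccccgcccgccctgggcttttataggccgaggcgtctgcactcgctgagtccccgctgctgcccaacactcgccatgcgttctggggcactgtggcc
The Mstn window held 4 E boxes, a distal and a proximal pair, the nearest beginning 19 bases before the start. The Gdf11 window held 1, CAGCTG, beginning 153 bases before the start. The Fstl3 window held 3, the nearest beginning 151 bases before the start. Of 32851 mouse promoters of this length, 72.3% held at least 1 E box, so its presence is the rule. The letters CAGAC on either strand, known from Smad binding, occurred 2 times in Mstn and 2 times in Fstl3, where 1 of them overlaps an E box, and were absent from the Gdf11 window; 49.6% of promoters held them. The letters AGAACA on either strand, known from androgen receptor binding, were found in the Fstl3 window, beginning 179 bases before the start, and in 19.0% of promoters. They also occurred in the window of Inhbb, in which no change was called. The letters CAGAC occurred as well in windows of Acvr2a, Acvr2b and Tgfbr1, in which no change was called either. E boxes were also present in windows of Acvr1b and Tgfbr1, again without a called change. The Smad3 window held none of these 3 motifs. Matches describe letters and are not binding sites, and Fst was not matched to a promoter.

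In 113Q muscle the transcripts of the ligand Mstn and of the transducer Smad3 fell, and those of the second ligand Gdf11 and of the inhibitor Fstl3 rose. Mstn was 2.56 times lower and Smad3 3.34 times lower, whereas Gdf11 was 3.04 times and Fstl3 5.26 times higher. No change was called in Inhbb, in Fst or in any of the 4 receptors. So 2 of 10 members were higher, where 16.5% of the 16960 genes tested were higher, and 2 were lower, where 18.1% of genes were lower. With 34.6% of genes called in either direction, a count of 4 in 10 is close to the share among all genes. Differences are edgeR quasi-likelihood tests with p adjusted by Benjamini-Hochberg over all genes tested. Levels are CPM, counts relative to library size scaled with TMM factors, which allow for a few abundant genes taking much of a library. The plot of the members by library shows each value.

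**Figure D1:**
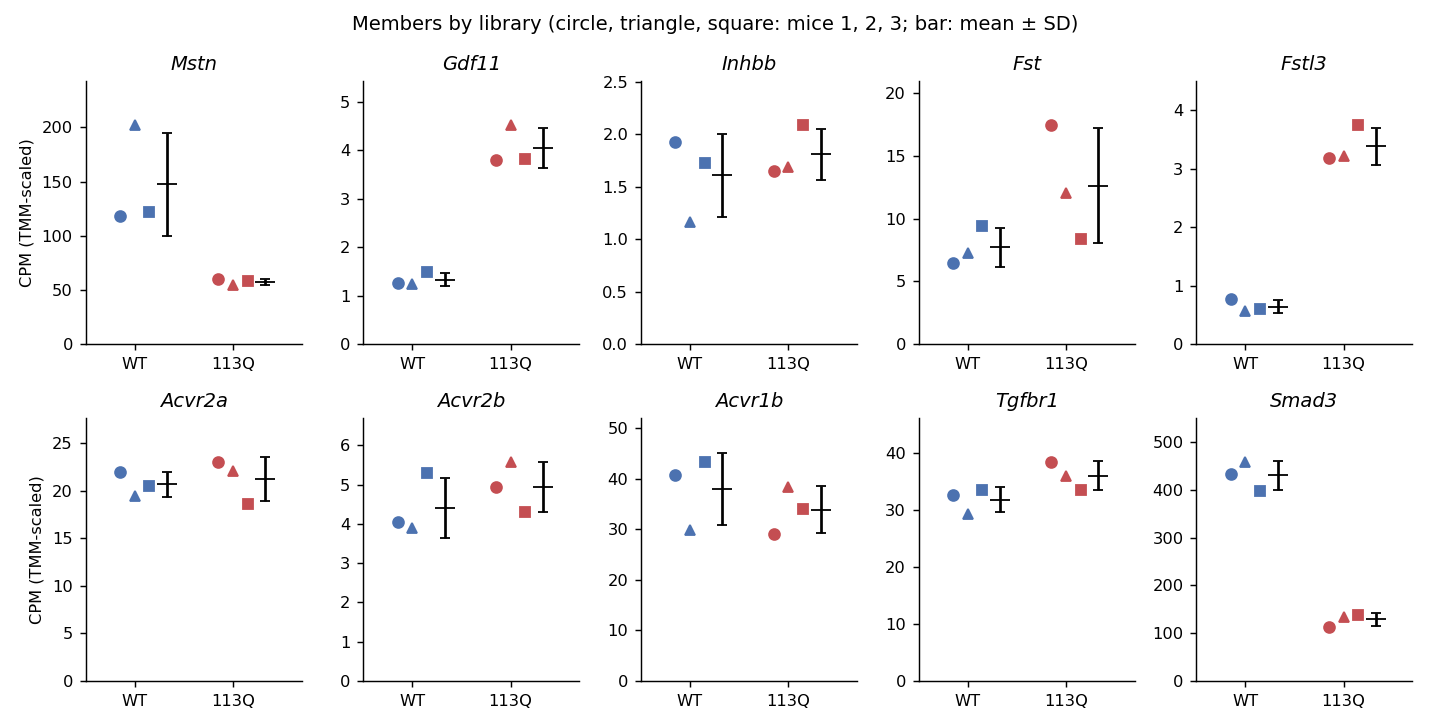
TMM-scaled CPM of the 10 members (vertical axes, linear from 0) in the 3 WT and 3 113Q mice, 1 point per mouse, with the mean ± SD beside each group. The groups do not overlap for Mstn, Gdf11, Fstl3 and Smad3; they overlap for the other 6 genes.

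Estimated counts summed to between 43581087 and 73873481 per library. The 20 most abundant genes held 30.8% to 32.7% of counts in WT libraries and 14.1% to 15.7% in 113Q libraries. The scaling factors followed the groups, at 0.768 to 0.794 in WT and 1.26 to 1.32 in 113Q. With library totals alone the median of all genes moved up by 0.72 on the log2 scale, 64.9% of genes were called higher and 4.19% lower. All 10 members were then called, 8 higher and 2 lower, the lower ones being Mstn (log2 fold change -0.63) and Smad3 (-1.02), while Gdf11 was at 2.32 and Fstl3 at 3.12. Acvr1b turned from -0.17 to 0.55. Epithelial transcripts, which do not belong to muscle fibres, reached an Epcam level of 3.83 CPM in WT mouse 2, 8.29 CPM in 113Q mouse 2 and 10.2 CPM in 113Q mouse 3, against at most 0.0385 CPM in the other 3. All 12 myofibre transcripts were present in every library and summed to 112849 to 128264 CPM (WT) and 33923 to 42414 CPM (113Q).

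Mstn encodes myostatin and lies at chr1:53061640-53068079 (mm10, plus strand). It measured 118.2, 202.3 and 122.2 CPM in WT mice 1, 2 and 3 and 60.2, 54.4 and 58.2 CPM in 113Q mice 1, 2 and 3. WT mouse 2 stood above the other WT mice, while the 113Q mice lay close together and all below the lowest WT mouse. The mean went from 147.6 ± 47.4 to 57.6 ± 2.95 CPM (SD, n = 3 per group), a log2 fold change of -1.36 (SE 0.21; edgeR adjusted p = 0.00348). Without WT mouse 2 the log2 fold change was -1.06, and without WT mouse 1 or 3 it was -1.50 or -1.48. In a bulk sample, fewer cells of a type and less RNA per cell cannot be told apart.

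Gdf11 encodes the ligand closest to myostatin in sequence and lies at chr10:128882295-128891718 (minus strand). It was scarce, at 1.27, 1.25 and 1.48 CPM in the WT mice and 3.81, 4.53 and 3.82 in the 113Q mice. These levels rest on 43 to 77 estimated counts per WT library and 341 to 405 per 113Q library. Every 113Q mouse exceeded every WT mouse, by more than the spread within either group. The mean rose from 1.33 ± 0.129 to 4.05 ± 0.413 CPM (SD, n = 3), a log2 fold change of 1.60 (SE 0.20; edgeR adjusted p = 0.000567). Inhbb, which encodes the beta B subunit of activin B, measured 1.92, 1.17 and 1.73 CPM in the WT mice and 1.65, 1.69 and 2.09 in the 113Q mice. The groups overlapped, and its log2 fold change of 0.17 (SE 0.26) did not pass (edgeR adjusted p = 0.651).

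Fst encodes follistatin, an inhibitor of activins and myostatin, and lies at chr13:114452290-114458951 (minus strand). It measured 6.45, 7.27 and 9.39 CPM in the WT mice and 17.5, 12.0 and 8.40 in the 113Q mice. 113Q mouse 1 was the highest, and 113Q mouse 3 lay below WT mouse 3. The mean was 7.70 ± 1.52 in WT and 12.6 ± 4.56 CPM in 113Q (SD, n = 3), a log2 fold change of 0.71 (SE 0.27) that did not pass (edgeR adjusted p = 0.0855). It passed in 6 of 22 alternatives, among them DESeq2 (adjusted p = 0.0273). In edgeR these included leaving out 113Q mouse 3 (adjusted p = 0.0223) and a term for the libraries with epithelial transcripts (0.0318). In the libraries with little Epcam, with 1 mouse of 113Q, its log2 fold change was 1.13. Over all settings tried its log2 fold change ran from 0.41 to 1.43 and its adjusted p from 0.00397 to 0.254.

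Smooth muscle and connective tissue transcripts varied beside Fst. Acta2, the actin of smooth muscle, measured 46.4, 126.5 and 184.2 CPM in the WT mice and 866.7, 566.3 and 425.4 in the 113Q mice. In each group the mice stood in the same order for Acta2 as for Fst. Of the 9 markers of smooth muscle and pericytes this held for 4 (Acta2, Myh11, Tagln and Cnn1) and not for the other 5, Abcc9 among them. Of those 9, 2 were higher in 113Q (Acta2 and Abcc9; 5 were called by DESeq2, 5 by limma voom and all 9 by library totals alone), with summed levels of 693.9 to 1173 CPM (WT) and 1683 to 3085 CPM (113Q), and none was at 0. The fibroblast collagen Col3a1 measured 308.7, 391.6 and 641.0 CPM in the WT mice and 714.5, 493.4 and 528.7 in the 113Q mice, and its order matched that of Fst in WT but not in 113Q. Among 10 fibroblast markers, Lum and Col1a1 stood in the order of Fst in both groups. None of 10 fibroblast markers passed in edgeR (3 at an unadjusted p under 0.05), with 3 called by DESeq2, 0 by limma voom and 9 (all higher) by library totals alone. Their summed levels were 1018 to 1877 CPM (WT) and 1575 to 2148 CPM (113Q), and none was at 0. The part of these cell types in the Fst values was not tested. The plot of Fst beside Acta2 and Col3a1 shows the mice singly.

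**Figure D2:**
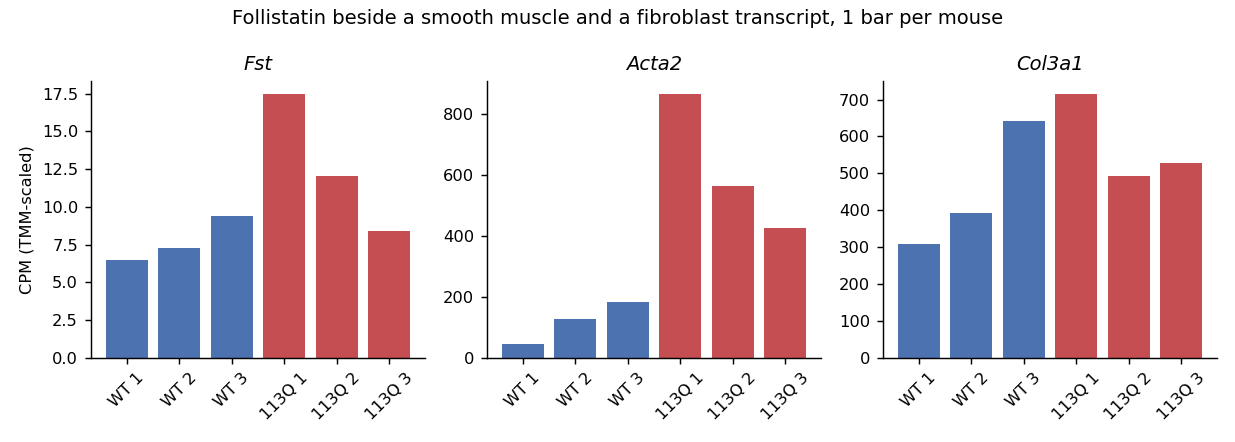
TMM-scaled CPM of Fst, Acta2 and Col3a1 (vertical axes, linear from 0), 1 bar per mouse, WT and 113Q. Fst and Acta2 both fall from 113Q mouse 1 to 113Q mouse 3 (17.5 to 8.40 CPM and 866.7 to 425.4 CPM), while Col3a1 is lowest among the 113Q mice in mouse 2 (493.4 CPM).

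Fstl3 encodes follistatin-like 3, a relative of follistatin, and lies at chr10:79777272-79782630 (plus strand). It measured 0.770, 0.566 and 0.597 CPM in the WT mice and 3.19, 3.22 and 3.75 in the 113Q mice. The counts behind these levels were 26 to 31 per WT library and 286 to 350 per 113Q library. The 113Q mice were all far above the WT mice. The mean rose from 0.644 ± 0.110 to 3.39 ± 0.316 CPM (SD, n = 3), a log2 fold change of 2.40 (SE 0.23; edgeR adjusted p = 0.000182), the largest rise among the members. Of its 2445 exonic bases, 1157 overlap exons of Prss57, a serine protease gene on the opposite strand. Prss57 itself measured 1.13, 2.06 and 2.04 CPM in the WT mice and 6.84, 6.01 and 5.84 in the 113Q mice, a log2 fold change of 1.83 (edgeR adjusted p = 0.000941). The strand setting of the counting is not given in the sources used here, so reads of Fstl3 and Prss57 in the shared bases cannot be told apart and the Fstl3 level is uncertain.

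None of the 4 receptor genes passed with TMM factors, whereas with library totals alone all 4 were called higher (Acvr1b 0.55, Acvr2a 0.76, Acvr2b 0.88 and Tgfbr1 0.90). Acvr2a and Acvr2b encode the type II receptors that bind activins and myostatin. Acvr2a measured 22.0, 19.5 and 20.5 CPM in the WT mice and 23.1, 22.1 and 18.6 in the 113Q mice, with the lowest mouse in the 113Q group (log2 fold change 0.04, SE 0.11; edgeR adjusted p = 0.805). Acvr2b measured 4.06, 3.89 and 5.29 CPM in the WT mice and 4.95, 5.59 and 4.31 in the 113Q mice (log2 fold change 0.16, SE 0.19; edgeR adjusted p = 0.544). Both receptors had overlapping groups. Exons of Acvr2a share 446 bases with Orc4 on the opposite strand, whose log2 fold change was 0.14 (edgeR adjusted p = 0.297).

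Acvr1b and Tgfbr1 encode the type I kinases ALK4 and ALK5. Acvr1b measured 40.8, 29.9 and 43.4 CPM in the WT mice and 29.1, 38.5 and 34.0 in the 113Q mice (log2 fold change -0.17, SE 0.16; edgeR adjusted p = 0.458). WT mouse 2 and 113Q mouse 1 were its lowest values, so the groups overlapped. In the libraries with little Epcam it was called lower (-0.53, edgeR adjusted p = 0.0400), with 1 mouse of 113Q. Tgfbr1 measured 32.6, 29.2 and 33.5 CPM in the WT mice and 38.4, 36.0 and 33.4 in the 113Q mice (log2 fold change 0.18, SE 0.09; edgeR adjusted p = 0.170). Its 113Q mice were above the WT range except mouse 3, which lay just below WT mouse 3. A p that misses the threshold does not show that these 4 levels were alike.

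Smad3, the transcription factor that carries the signal of these receptors to the nucleus, lies at chr9:63646767-63757994 (minus strand). It measured 433.7, 459.3 and 398.6 CPM in the WT mice and 113.7, 134.2 and 138.7 in the 113Q mice. The lowest WT mouse was far above the highest 113Q mouse. The mean fell from 430.5 ± 30.4 to 128.8 ± 13.3 CPM (SD, n = 3), a log2 fold change of -1.74 (SE 0.10; edgeR adjusted p = 2.24e-05), and it stayed lower under every scaling tried. The WT and 113Q values did not overlap in 4 of 10 members (Mstn, Gdf11, Fstl3 and Smad3), where 49.9% of all genes tested did not overlap. The median log2 fold change of the members was 0.17, beside 0.01 for all genes tested. The plot of fold changes under both scalings shows which directions rest on the scaling.

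**Figure D3:**
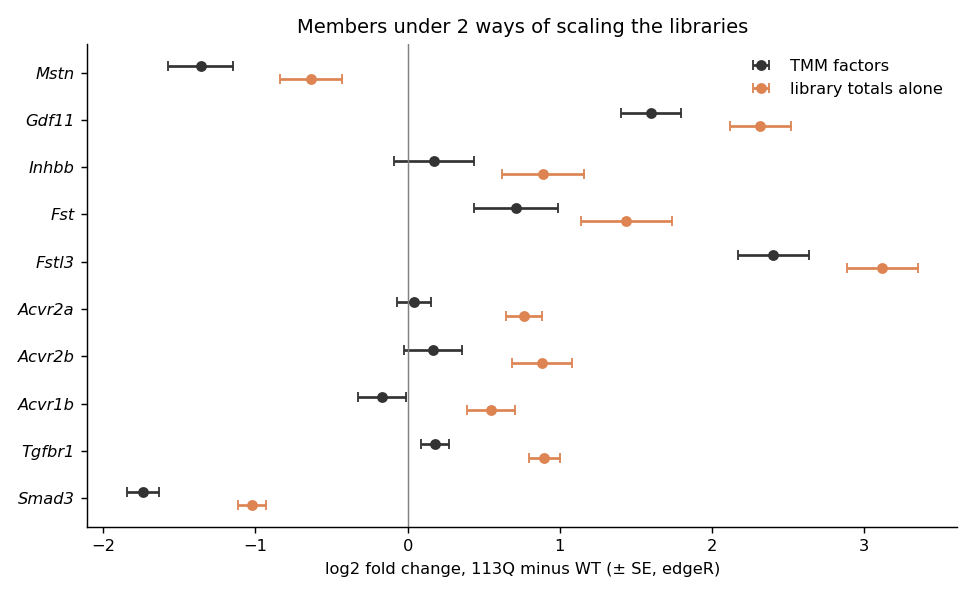
Log2 fold change of each member, 113Q minus WT, with SE derived from the edgeR F statistic (horizontal axis), with TMM factors and with library totals alone. Mstn (-1.36 and -0.63) and Smad3 (-1.74 and -1.02) are below 0 and Gdf11 and Fstl3 above 0 with both, and Acvr1b changes sign (-0.17 and 0.55).

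Levels were compared between genes after division by exonic length, as mean CPM per kilobase. In WT muscle the order was Smad3 (77.7), Mstn (54.6), Acvr1b (8.61), Tgfbr1 (4.86), Acvr2a (3.64), Fst (1.68), Acvr2b (1.12), Inhbb (0.378), Gdf11 (0.328) and Fstl3 (0.263). Neighbours that overlapped between mice were Smad3 with Mstn, Inhbb with Gdf11, and Gdf11 with Fstl3. In 113Q muscle the order was Smad3 (23.2), Mstn (21.3), Acvr1b (7.67), Tgfbr1 (5.50), Acvr2a (3.74), Fst (2.75), Fstl3 (1.39), Acvr2b (1.26), Gdf11 (0.997) and Inhbb (0.425). Overlapping neighbours there were Smad3 with Mstn, Acvr2a with Fst, Fstl3 with Acvr2b, and Acvr2b with Gdf11. The first 6 genes kept their places, while Fstl3 moved from the lowest level to above Acvr2b.

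Ratios of genes within a library do not depend on how libraries are scaled to each other. Per kilobase and on the log2 scale, Mstn to Gdf11 was 7.11, 7.92 and 6.94 in WT and 4.57, 4.17 and 4.51 in 113Q. Myostatin transcripts remained the more abundant in every mouse, but the mean ratio went from 7.32 ± 0.52 to 4.42 ± 0.22 (SD, n = 3), a difference of -2.91 or 7.49-fold. The exact permutation test (two-sided) gave p = 0.1, the smallest that 3 against 3 mice allow, and 0.2 after adjustment over 4 ratios. Fst to Mstn was -4.95, -5.56 and -4.46 in WT and -2.55, -2.94 and -3.55 in 113Q. The inhibitor stayed below the ligand throughout, by less in each 113Q mouse than in any WT mouse. The means were -4.99 ± 0.55 and -3.01 ± 0.51 (SD, n = 3), a difference of 1.98 or 3.94-fold (exact permutation p = 0.1, adjusted 0.2).

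Acvr2a to Acvr2b, the type II receptors against each other, was 1.90, 1.79 and 1.42 in WT and 1.69, 1.45 and 1.58 in 113Q. The groups overlapped, with a difference of -0.13 (exact permutation p = 0.5, adjusted 0.6). The 12 myofibre transcripts were Ttn, Neb, Des, Ckm, Acta1, Ldb3, Myoz1, Actn3, Actn2, Ryr1, Cacna1s and Myot. A shift of fibre type among them was not tested. Mstn was also set against their mean, since myostatin is made by fibres. That ratio was -4.19, -3.62 and -4.20 in WT and -3.65, -4.12 and -3.96 in 113Q. WT mouse 2 and 113Q mouse 1 were highest and the groups overlapped. The means of -4.00 ± 0.33 and -3.91 ± 0.24 (SD, n = 3) differed by 0.09 (exact permutation p = 0.6, adjusted 0.6). Over leaving out single mice, this difference against the 12 transcripts ran from -0.04 to 0.28. With titin (Ttn) alone as the reference and all mice kept, the difference was -0.43 (exact permutation p = 0.3). The 12 fibre genes all fell in edgeR with TMM factors, with a median log2 fold change of -1.23 beside -1.36 for Mstn; with library totals alone 6 fell and 2 rose. Among them Ttn, a giant spring protein of the sarcomere, had a log2 fold change of -0.93, muscle creatine kinase Ckm of -1.71 and skeletal actin Acta1 of -2.13 (edgeR adjusted p = 0.00867, 8.52e-05 and 0.000209). The fibre genes Neb and Des had -0.82 and -0.43 (edgeR adjusted p = 0.00242 and 0.0114). The mean of the 12 thus joins genes that fell less than Mstn with genes that fell more.

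**Figure D4:**
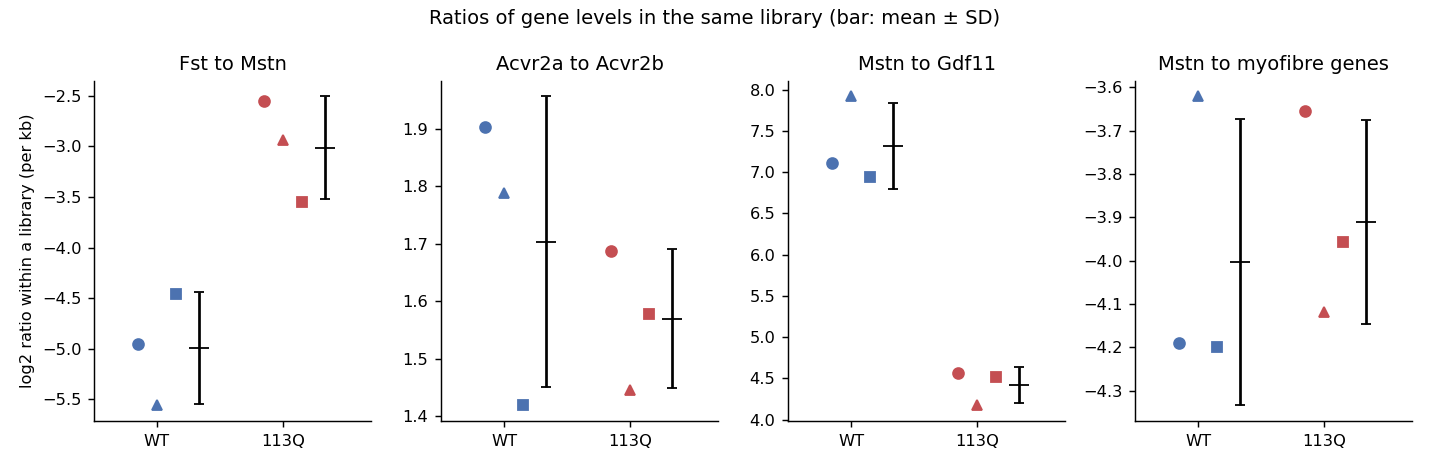
Log2 ratios of transcript levels within each library, per kilobase (vertical axes, which differ between panels and do not start at 0), for 3 WT and 3 113Q mice, with mean ± SD. The groups separate for Fst to Mstn and Mstn to Gdf11, and overlap for Acvr2a to Acvr2b and for Mstn to myofibre genes.

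The 5 genes whose levels followed Mstn most closely were BC042782, 2310014F06Rik, Evc, Slc4a4 and Utp11l. Likeness was the root mean square difference of centred log2 CPM over the 6 libraries, among 10569 genes whose mean reached 5 CPM, and was 0.104, 0.109, 0.123, 0.132 and 0.138. All 5 were highest in WT mouse 2 and lower in every 113Q mouse than in any WT mouse, as Mstn was. They were picked for likeness over these same libraries, so the shared pattern follows from the choice. Evc, a gene of the primary cilium, went from 31.9, 48.7 and 36.3 CPM in WT to 15.2, 13.0 and 13.1 CPM in 113Q.

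Other genes of the pathway were taken from 7 lists by role, and each count is read beside the 16.5% of all genes higher and 18.1% lower. Among the other ligands of this arm, 1 of 8 tested was higher and 0 lower, against 6 and 0 by library totals alone. That was Tgfb2, a transforming growth factor beta, at 17.2 ± 4.99 CPM in WT against 27.4 ± 2.58 in 113Q (SD, n = 3; log2 fold change 0.67, edgeR adjusted p = 0.0375). Its call was lost without WT mouse 1 (adjusted p = 0.113) and without 113Q mouse 1, 2 or 3 (0.117, 0.0749 and 0.0893). Inha, the inhibin alpha subunit, was counted in this list although inhibins oppose activins. Its log2 fold change was 0.70 (edgeR adjusted p = 0.0506), and it passed in 10 of 22 alternatives, among them DESeq2 (0.0180) and limma voom (0.0143). Nodal and Gdf1 had log2 fold changes of 0.69 and 0.28 (edgeR adjusted p = 0.165 and 0.426). Inhba, the activin A subunit, was barely detected, at a mean of 0.164 CPM in the WT mice and 0.156 in the 113Q mice.

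Of 12 genes of precursor processing and latency, 0 passed in edgeR, with 2 at an unadjusted p under 0.05, 2 called by DESeq2, 3 by limma voom and 9 (all higher) by library totals alone. Furin, the protease that cuts the precursors, had a log2 fold change of -0.32 (edgeR adjusted p = 0.0511), which turned to 0.40 with library totals alone. Latent binding protein genes Ltbp4 and Ltbp3 had 0.30 and 0.24 (edgeR adjusted p = 0.106 and 0.114), and the protease gene Pcsk5 had 0.52 (0.118). Of 8 other inhibitors and co-receptors, 0 passed in edgeR, with 1 at an unadjusted p under 0.05, 1 called by DESeq2, 1 by limma voom and 6 (all higher) by library totals alone. Wfikkn2, a myostatin-binding inhibitor, was 7.51 ± 0.609 CPM in WT against 8.54 ± 1.38 in 113Q (SD, n = 3; log2 fold change 0.18, edgeR adjusted p = 0.409). Lefty1, an inhibitor of Nodal, had 0.60 (edgeR adjusted p = 0.0721), the follistatin-related Fstl1 0.52 (0.161) and the co-receptor Tgfbr3 0.16 (0.384).

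Among 7 other receptors and receptor-bound regulators, 3 were lower and 0 higher with TMM factors, whereas library totals alone gave 6 higher and 0 lower. The lower ones were Zfyve9 (SARA, which brings Smads to the receptor; log2 fold change -0.38), Strap (-0.33) and the endothelial co-receptor Eng (-0.40), with edgeR adjusted p of 0.00817, 0.00939 and 0.0221. Eng lost its call without WT mouse 2 (0.0508) and without 113Q mouse 1, 2 or 3 (0.0690, 0.0717 and 0.0520). Beside Eng, all 9 endothelial markers were lower with TMM factors, with summed levels of 486.9 to 618.3 CPM (WT) and 341.7 to 349.4 CPM (113Q) and none at 0. Of these 9, library totals alone left 0 lower and 1 higher. Their part in the Eng value was not tested. Fkbp1a, which binds type I receptors, had -0.22 (edgeR adjusted p = 0.0624), turning to 0.50 with library totals alone.

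Among 14 other Smads and Smad regulators, 2 were higher and 4 lower with TMM factors, and 12 higher and 0 lower with library totals alone. Usp15, a deubiquitinase of this pathway, fell from 281.8 ± 12.5 to 158.7 ± 5.06 CPM (SD, n = 3; log2 fold change -0.83, edgeR adjusted p = 0.000145), a call lost with library totals alone (-0.11, adjusted p = 0.228). The phosphatase gene Ppm1a (-0.49) and the ubiquitin ligase gene Nedd4l (-0.47) fell as well (edgeR adjusted p = 0.00266 and 0.00330), although with library totals alone both turned positive (0.23 and 0.25). Ski, a repressor of Smad transcription, rose from 70.6 ± 6.14 to 104.2 ± 6.60 CPM (SD, n = 3; 0.56, edgeR adjusted p = 0.00217). Tgif1, another repressor, and Smad4, the shared partner, also passed (0.48 and -0.31, edgeR adjusted p = 0.0263 and 0.0353) and were picked for mention after their values were seen. Smad4 lost its call without any single mouse except WT mouse 1 (adjusted p 0.0729 to 0.114), and Tgif1 without WT mouse 2 or 3 or 113Q mouse 1 or 2 (0.0613 to 0.0864). Smad2, the partner of Smad3, was 26.1 ± 2.32 CPM in WT against 27.4 ± 1.15 in 113Q (SD, n = 3; 0.07, edgeR adjusted p = 0.613).

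Of 15 genes that activin or TGF-beta commonly induce through Smad3, 2 were higher and 2 lower, and 10 higher and 1 lower with library totals alone. The cell cycle inhibitor gene Cdkn1a (p21) rose from 16.5 ± 1.75 to 27.4 ± 1.95 CPM (SD, n = 3; 0.73, edgeR adjusted p = 0.00147). Ankrd1, a muscle stress protein, measured 2.93, 2.19 and 3.29 CPM in the WT mice and 15.9, 4.97 and 17.6 in the 113Q mice (2.19, edgeR adjusted p = 0.0171). Its call was lost with limma voom (0.107) and without WT mouse 1, 2 or 3 (0.0681, 0.0770 and 0.0547). The transcription factor gene Bhlhe40 fell from 207.2 ± 69.7 to 100.1 ± 15.1 CPM (SD, n = 3; -1.05, edgeR adjusted p = 0.0187), a call lost without 113Q mouse 1 (0.0629) or 3 (0.0654) and with library totals alone (0.270).

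The bone morphogenetic protein (BMP) arm shares Smad4 and the type II receptors, and of its 24 genes tested 4 were higher and 4 lower, with 16 higher and 2 lower with library totals alone. Noggin (Nog), a secreted BMP inhibitor, measured 5.98, 3.89 and 5.45 CPM in the WT mice and 1.12, 2.01 and 1.12 in the 113Q mice (-1.85, SE 0.30; edgeR adjusted p = 0.00206). Its highest 113Q mouse lay below its lowest WT mouse, and it fell with library totals alone as well (-1.13). Chordin (Chrd), another BMP inhibitor, fell with TMM factors (-0.67, edgeR adjusted p = 0.00417) and was at 0.05 with library totals alone. Higher were the type I receptor gene Bmpr1b, from 6.99 ± 1.66 to 19.0 ± 0.781 CPM (SD, n = 3; 1.44, edgeR adjusted p = 0.000517), the co-receptor gene Rgmb (0.83, 0.000118) and a target gene, Id2 (0.87, 0.00183). The target genes Id1 and Id3 did not pass, at -0.79 and 0.08 (edgeR adjusted p = 0.0669 and 0.518). Smad6, an inhibitory Smad, and Bmpr2, a type II receptor, passed (-0.67 and 0.72, edgeR adjusted p = 0.0228 and 0.0442). Smad6 lost its call without any single mouse except WT mouse 2 (0.0548 to 0.0687), and Bmpr2 without any except WT mouse 2 (0.0699 to 0.134). Nog, Chrd, Smad6, Bmpr2, Id1 and Id3 were picked for mention after their values were seen.

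**Figure D5:**
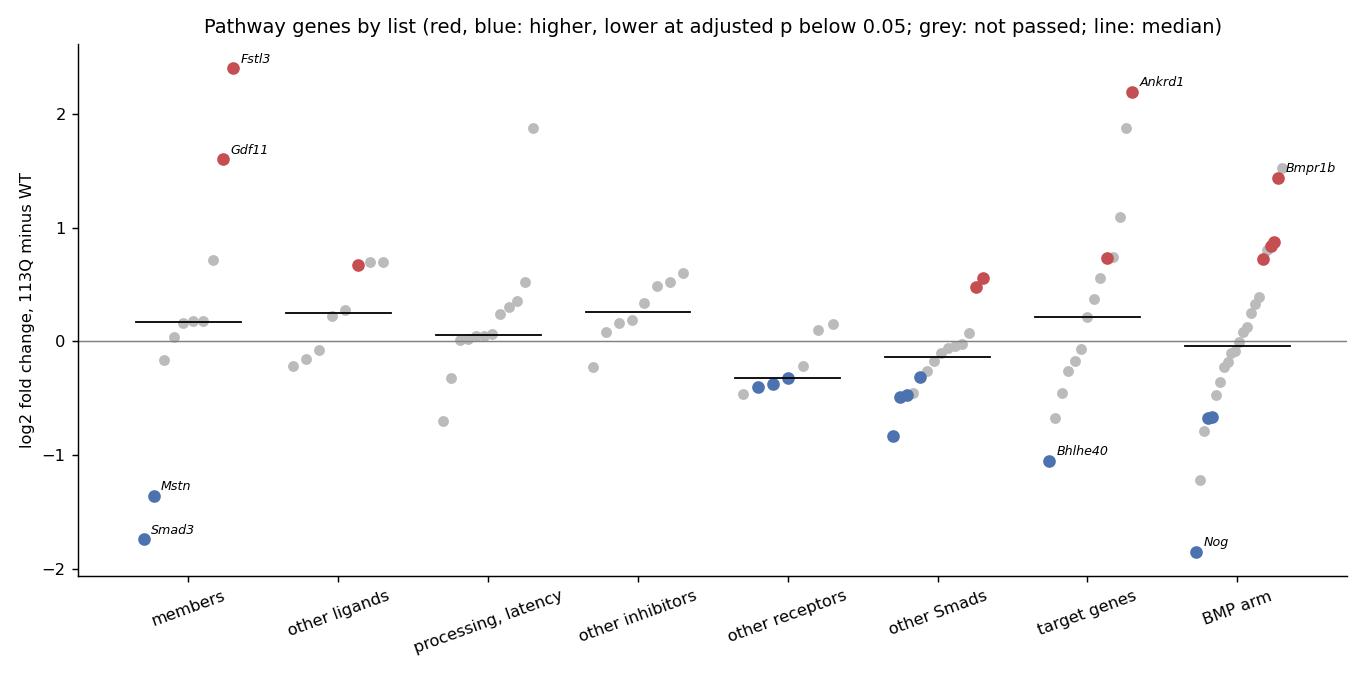
Log2 fold change, 113Q minus WT with TMM factors (vertical axis), of genes of the members and of 7 further pathway lists, 1 point per gene, with the median of all tested genes of the list as a line. Genes that passed lie on both sides of 0 among the members, Smad regulators, target genes and BMP genes; with library totals alone the receptor genes and Smad regulators that passed are all above 0.

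Markers of other cells were counted for the same libraries. Of 8 satellite cell markers 5 were higher and 1 lower (7 and 0 by library totals alone), with summed levels of 153.7 to 188.9 CPM (WT) and 231.0 to 246.3 CPM (113Q) and none at 0. Pax7, the defining marker of these muscle stem cells, measured 5.24, 4.91 and 5.54 CPM in the WT mice and 9.44, 9.40 and 9.24 in the 113Q mice. None of 9 macrophage markers and none of 10 epithelial markers tested passed in edgeR, DESeq2 or limma voom, and 0 of either had an unadjusted p under 0.05. By library totals alone all 9 macrophage markers were higher, and still 0 epithelial markers passed. Of 7 adipocyte markers 1 was lower, and 0 by library totals alone. In the 3 libraries with little Epcam (WT mice 1 and 3 and 113Q mouse 1) Mstn had a log2 fold change of -0.998, Smad3 of -1.87, Gdf11 of 1.46 and Fstl3 of 2.23 (edgeR adjusted p = 0.00281, 0.000224, 0.0370 and 0.0125), with a lone 113Q mouse assumed to vary like the WT mice.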

How the data were processed

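Polyadenylated RNA was sequenced from LA/BC muscle of 3 WT and 3 113Q mice. Per the labels' protocols, RNA came from frozen muscle by Trizol and libraries were made with a TruSeq mRNA kit. The authors deposited 1 table of estimated counts per gene, made with Cuffdiff 2.1.1 on mm10, per the submitters' processing notes. Those notes also list the aligners TopHat2 2.0.9 and Bowtie2 2.1.0, the read tools FastQC 0.10.0 and cutadapt, and Cufflinks. Not given in the sources used here are the annotation, the read filters and whether strand was used. Between 5.38% and 5.96% of the values per library were not exactly whole (no tolerance), and values were rounded before testing.

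Groups came from the genotype label. Counts were compared with edgeR 4.0.16 in R 4.3.3 over the whole table: filterByExpr (minimum count 10), TMM factors, a robust two-sided quasi-likelihood F test, and Benjamini-Hochberg adjustment with a threshold of 0.05. All 10 members passed the filter. The common biological coefficient of variation was 24.2%, and replicate libraries differed by more than sampling noise. Ratios used counts plus 0.5, divided by exonic length in GENCODE M21 (mm10), and exact permutation tests. The scripts were tested on simulated data.

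By rule, the genes named were the members, the 5 genes most like Mstn, and genes of the pathway lists. From each list these were up to 4 genes with the smallest p, and every gene passed where 4 or fewer passed. Inhba, Smad2, the cell type markers and the genes that share exons with members were named outside this rule. Other genes outside it are said to have been picked after their values were seen. Of the list genes, 2 that the rule named are counted but not reported or drawn here. The members and lists were chosen with earlier results of these data known. Of the list genes, 3 were found under older symbols. Alternatives were DESeq2 1.42.0, weighted limma 3.58.1 voom, library totals alone, upper-quartile or RLE factors, other filters and thresholds, unrounded counts, no robust estimation, a test against a fold of 1.2, symbols summed, an epithelial term, leaving out each mouse and a replicate block. A fit to the libraries without epithelial transcripts (Epcam under 1 CPM) was added after seeing the data. Promoters came from the RefSeq table on GRCm38.p6, which matched 9 of 10 members. Proteins were not analysed here.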

Additional observations from a re-analysis of the deposited data

How the results depend on the processing

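Mstn and Smad3 stayed lower and Gdf11 and Fstl3 stayed higher, each past the threshold, in all 22 alternatives, with log2 fold changes of -1.50 to -0.63, -1.87 to -1.02, 1.46 to 2.32 and 2.23 to 3.12. The count of members called was 4, where 5869 of all 16960 genes tested were called, 47.6% of them higher. With library totals alone it was 10 (8 higher, 2 lower), where 11725 of 16960 genes were called, 93.9% of them higher. It was 5 with DESeq2 (6496 of 16960 genes called) and without 113Q mouse 3 (4325 of 17229). It was also 5 with the epithelial term (5988 of 16960) and at an adjusted p under 0.1 (7290 of 16960). It stayed at 4 at an adjusted p under 0.01 (3424 of 16960 genes called) and against a fold of 1.2 (3793 of 16960). Library totals alone turned the direction of Acvr1b (0.55), Chrd (0.048), Eng (0.32), Fkbp1a (0.50), Furin (0.40), Nedd4l (0.25), Ppm1a (0.23), Smad4 (0.41), Smad6 (0.051), Strap (0.39) and Zfyve9 (0.34). Leaving out single mice moved the log2 fold change of Acvr2a between -0.016 and 0.13 and that of Inhbb between -0.013 and 0.32. The 113Q minus WT difference in the log2 ratio of Mstn to myofibre genes then lay between -0.035 and 0.28. The libraries without epithelial transcripts, a setting chosen after seeing the data, rest on 1 mouse of 113Q. There the 113Q minus WT difference in log2 ratio was 0.026 for Acvr2a to Acvr2b. It was -2.46 for Mstn to Gdf11 and 0.54 for Mstn to myofibre genes. The log2 fold change there was -0.14 for Inhbb, -0.31 for Gdf1 and -0.16 for Wfikkn2. The cause was not tested. With all 6 libraries and Ttn alone as the reference, the difference for Mstn was -0.43.

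The labels do not say that the mouse numbers pair the samples. Deviations of same-numbered mice correlated at 0.115, 0.159 and -0.291, and those of unlike-numbered mice at -0.35 to 0.33. With 3 mice per group these correlations cannot decide whether mice were paired. With the replicate block 4 members were called, where 4737 of 16960 genes were called. The log2 fold change of Mstn was then -1.31 (edgeR adjusted p = 0.00970). The counts behind Gdf11, Fstl3 and Inhbb are the smallest among the members and limit their precision.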
